A study of Labroides dimidiatus with 23 samples.

Results

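The regions described here are stretches of the cleaner wrasse genome that carried H3K27ac peaks in nearly all forebrain libraries but had less than 50% of their length under peaks in both familiar 120 replicate 3 and control 30 replicate 3, called the divergent libraries here. Bases that lay under peaks in 3 or more of 22 libraries were merged across gaps no wider than 200 bp, which gave 52979 regions no shorter than 200 bp. A region counted as present in a library when at least 50% of its bases lay under that library's peaks. A region was a member when it was present in neither divergent library and in at least 17 of the other 20. This rule kept 2157 regions, or 4.07% of all regions and 15.8% of the 13676 common regions, meaning those present in at least 17 of the 20. They spanned 10.9 Mb in total. They are set beside the 7294 common regions that both divergent libraries held, called retained regions below. The members were chosen by peak cover, so their low cover in both divergent libraries and their high presence in the other 20 are descriptions, not findings.

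The study asked how recognition of a client fish of another species is laid down in the brain of the cleaner wrasse, Labroides dimidiatus. Fish were given a choice between clients, either after contact with 1 of them (familiar) or with both of them new (control). H3K27ac was profiled in forebrain of adult fish by CUT&RUN, in 6 familiar 120 libraries, 6 control 120 libraries, 6 familiar 30 libraries and 5 control 30 libraries. The labels give 30 and 120 no unit, name no strain, sex or genotype, and open each title with a number taken here as the fish. Replicate numbers only name libraries in accession order. Beyond that number nothing tells whether libraries are separate fish, and p-values here reflect the scatter of libraries, some of which may be technical.

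H3K27ac is acetylation of a lysine in the tail of histone H3. It is written by the acetyltransferases p300 and CBP, removed by histone deacetylases, and found at active promoters and enhancers, with long stretches at genes that are strongly expressed in a cell type. In the rodent forebrain, histone acetylation is known to change with neuronal activity and learning. In CUT&RUN an antibody brings a nuclease to the mark, which cuts out the marked DNA for sequencing, and broad peaks outline the stretches where such fragments pile up. Forebrain tissue holds neurons, glia and vessel cells, so a difference in peaks cannot tell a change within cells from a change in their proportions. No gene table of these coordinates was used here, so regions are given by position and neither genes nor tissue markers are named. No source used here names the genome build.

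Familiar 120 replicate 3 had 34713 peaks over 67.3 Mb and control 30 replicate 3 had 46440 peaks over 87.6 Mb, against 39583 to 48263 peaks over 69.9 to 95.2 Mb in the other 20 libraries. Their median peak widths of 1033 and 1024 bp lay within the range of the other 20, 983 to 1102 bp. Control 30 replicate 3 was thus ordinary in number, extent and width of peaks, while familiar 120 replicate 3 had fewer peaks over less of the genome than any of the 20. Familiar 30 replicate 2 had only 7076 peaks and took no part in the rule or in any test of group differences. Read depth is unknown, since the files list peaks and no reads, and its part in any difference below was not tested.

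Most members were not bare of H3K27ac in the divergent libraries. In familiar 120 replicate 3, 674 members (31.2%) had no base under a peak, and in control 30 replicate 3, 206 members (9.55%) had none. In both, 159 members (7.37%) were empty. That share depends on the rule, and was 49.1% with presence set at 25% of bases, 36.6% with only peaks whose -log10 q was 5 or more, 32.9% with regions built from 11 or more libraries, 12.8% with presence in 15 of the 20, 2.75% with presence in all 20, 4.72% with regions built from 2 or more libraries and 0% with presence set at 75%. Under the rule used, the name of lost regions suits a minority, and they are called under-covered regions here. The median cover was 17.7% in familiar 120 replicate 3 (quartiles 0% and 31.0%) and 36.5% in control 30 replicate 3 (quartiles 25.7% and 43.7%), against a median of 72.7% for the mean cover in the other 20 libraries. Cover was lower in familiar 120 replicate 3 than in control 30 replicate 3 at 1666 members (77.2%) and higher at 330. In control 30 replicate 3, 844 members (39.1%) had a cover of 40 to 50%, just short of counting as present, as did 217 (10.1%) in familiar 120 replicate 3.

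**Figure D1:**
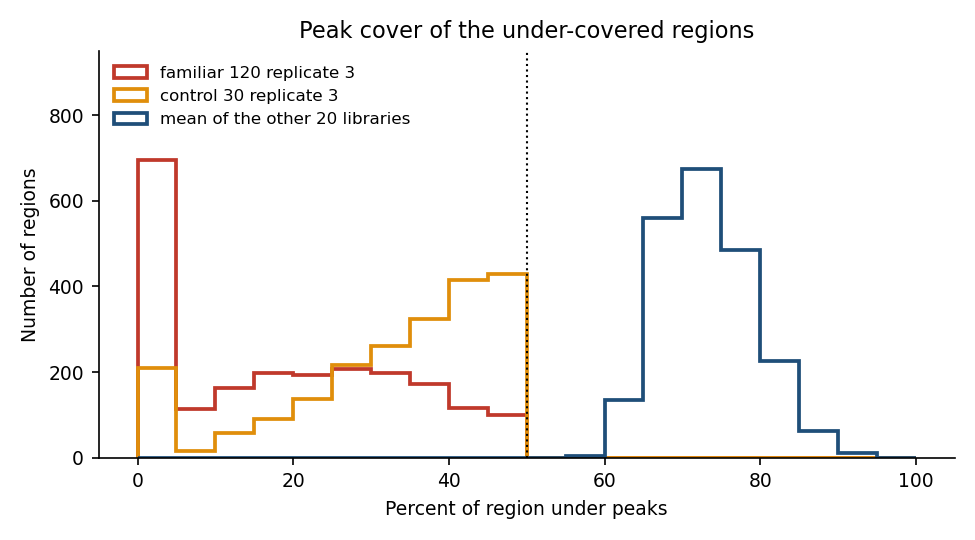
Number of under-covered regions (vertical axis) by the percent of the region under peaks (horizontal axis, bins of 5 points) in familiar 120 replicate 3, in control 30 replicate 3 and as the mean of the other 20 libraries. The dotted line marks the 50% that counted as present; 674 regions have no peak base in familiar 120 replicate 3, while the control 30 replicate 3 values crowd below the line, with 844 of them between 40 and 50%.

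Pooled over members, the remaining peaks lay on bases that more of the other 20 libraries covered than the bases outside them. In members still touched by a peak of familiar 120 replicate 3, bases under that peak (2.39 Mb) were covered by 19.3 of the other 20 libraries on average, and the bases outside it (7.04 Mb) by 13.5. In control 30 replicate 3 the values were 19.02 libraries for bases under a peak (3.90 Mb) and 12.5 for bases outside (6.70 Mb). Regions reach out to bases held by as few as 3 libraries, so the way they were built favours such a difference in any library. The same split was not computed for the other libraries, so it is not read as a trait of the divergent ones. The remaining peaks often ranked below those of other libraries at the same region. The rule chose the members by cover under these same peaks, so their ranks are description and no separate support. Each peak was ranked by the authors' -log10 q among the peaks of its own library, from the weakest at 0 to the strongest at 100, and a region took its highest-ranked peak. The median rank at touched members was 40.6 in familiar 120 replicate 3 and 54.98 in control 30 replicate 3. At 75 of the 1483 members touched by familiar 120 replicate 3 (5.06%) this rank reached the median rank of the other 20 libraries, and at 334 of the 1951 touched by control 30 replicate 3 (17.1%). It reached the lowest rank of the other 20 at 386 members in familiar 120 replicate 3 and at 1206 (61.8% of those touched) in control 30 replicate 3. In each of the 20 libraries, 37.6 to 65.6% of members reached the median of the remaining libraries. Ranks come from lists of different lengths, so they show a place within a list and not a change in level. A member held 1.04 peaks on average in familiar 120 replicate 3 and 1.52 in control 30 replicate 3, against 1.28 to 1.52 in the other 20. Control 30 replicate 3 thus had no fewer peaks per member than the others. The width of peaks at members was not measured.

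Averaged over the 2157 members, cover was 18.1% in familiar 120 replicate 3 and 32.6% in control 30 replicate 3, against 62.8 to 80.7% in the other 20 libraries. At retained regions the same libraries reached 73.6% and 81.9%, against 67.4 to 82.6% in the other 20. Both divergent libraries thus lay inside the range of the others at retained regions, as the rule favours, and far below it at the members. Among the 20, members had a lower mean cover than retained regions in 19; control 30 replicate 4 was the exception, with 79.2% at members and 78.5% at retained regions.

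**Figure D2:**
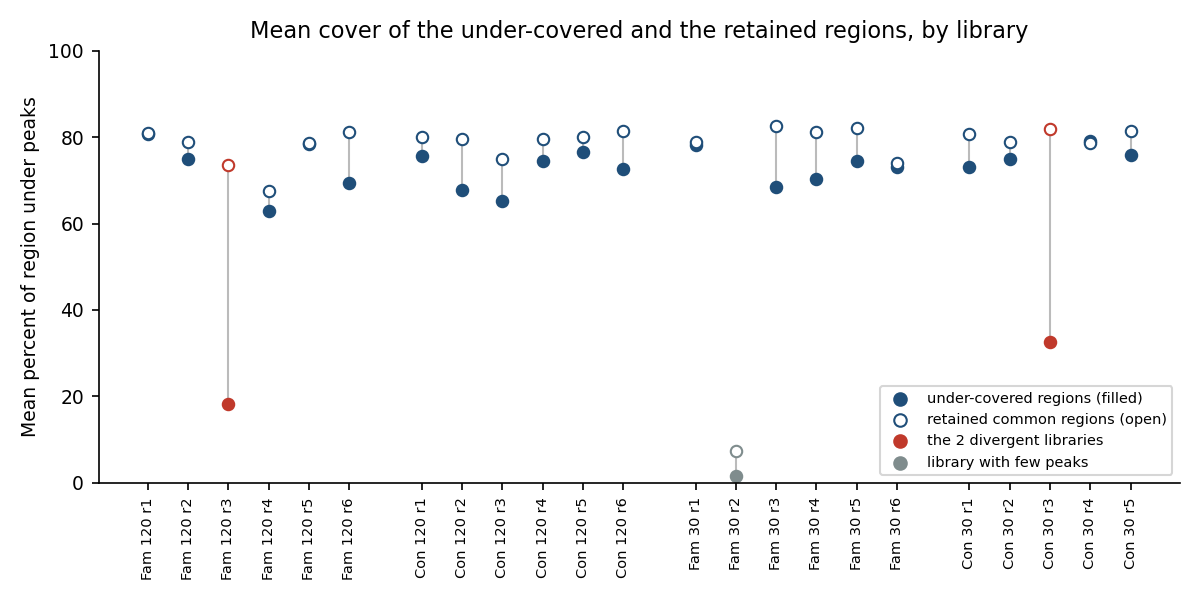
Mean percent of region under peaks (vertical axis) in each of the 23 libraries, over the 2157 under-covered regions (filled) and the 7294 retained common regions (open), with a grey line joining both values of a library. The 2 divergent libraries (red) drop to 18.1% and 32.6% at the under-covered regions, the other 20 libraries (blue) stay at 62.8 to 80.7%, and familiar 30 replicate 2, the library with few peaks (grey), has little cover in either set.

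The under-covered regions of control 30 replicate 3 were largely contained in those of familiar 120 replicate 3. Familiar 120 replicate 3 lacked 6087 of the 13676 common regions (44.5%) and control 30 replicate 3 lacked 2452 (17.9%). The 2157 shared ones are 35.4% of the list of familiar 120 replicate 3 and 88.0% of the list of control 30 replicate 3. Over all 52979 regions, 24946 (47.1%) were present in neither library. For comparison, common regions were chosen anew without each of the 20 other libraries in turn, with the number required lowered to match. Those that each left-out library lacked were counted. Each lacked 2.77% (familiar 120 replicate 1) to 21.97% (familiar 120 replicate 4). Of the regions so lacked, 53.8 to 78.7% were also lacked by familiar 120 replicate 3, and 21.9 to 59.6% by control 30 replicate 3. The overlap of 88.0% between the divergent pair lay above all 20 of those values for familiar 120 replicate 3, while the reverse share of 35.4% lay within the values for control 30 replicate 3, whose median was 33.3%. Familiar 120 replicate 4, which lacked the most, shared 57.7% of its list with familiar 120 replicate 3 and 24.99% with control 30 replicate 3. The divergent pair was chosen with earlier results of these data known, which can favour their overlap. The libraries also share most of the regions compared, so these shares are given as description.

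The members had a longer median and weaker peaks than the retained regions. Their lengths ran from 367 to 52866 bp with a median of 3379 bp, against 2594.5 bp for retained regions and 1282 bp for all regions. The members' median length was 1278 bp with regions built from 11 or more libraries, 1866 bp with presence set at 25%, 5877.5 bp with only peaks whose -log10 q was 5 or more, 5951 bp with presence in all 20 and 7665 bp with presence set at 75%. The length of retained regions was not computed under these settings, so they do not show whether members stayed the longer. They made up 6.34% of common regions shorter than 1 kb (74 of 1167), 14.97% of those of 1 to 3 kb (892 of 5958), 19.95% of those of 3 to 10 kb (925 of 4636) and 13.9% of those of 10 kb or more (266 of 1915). By the median rank of the -log10 q over the 20 libraries, the median member stood at 68.5 and the median retained region at 85.9. Ranked instead by the authors' fold enrichment, the values were 68.6 and 85.8. The gap was present in all 4 length classes, from 52.1 for members against 75.5 for retained regions shorter than 1 kb to 81.6 against 92.0 at 10 kb or more. It was also present in all of the 20 libraries taken alone, whose median -log10 q of the best peak was 3.71 to 6.13 at members and 5.75 to 10.9 at retained regions. These traits were not particular to the members. Common regions lacking in familiar 120 replicate 3 alone had a median length of 3001 bp, and their share was also highest at 3 to 10 kb (31.4%). Those lacking in control 30 replicate 3 alone were shorter, at 2165 bp. By the median rank of the -log10 q, these 2 sets stood at 74.1 and 70.8, both below retained regions.

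Members filled 29.6% of the weakest 20% of common regions by this rank (810 regions) and 3.91% of the strongest (107 regions). From weak to strong, the shares between were 20.9%, 15.9% and 8.52%, so that each step up in peak strength held fewer members. With 5 equal parts formed by length, the shares were 10.7%, 15.6%, 16.5%, 20.2% and 15.9% from shortest to longest, with no such steady order. Strong peaks, those whose -log10 q was 5 or more, touched 11.3% of members in familiar 120 replicate 3 and 28.7% in control 30 replicate 3, against 27.96 to 64.4% in the other 20. By this count familiar 120 replicate 3 was below the others, and control 30 replicate 3 was just above their lowest, familiar 120 replicate 4. At retained regions strong peaks touched 70.3% in familiar 120 replicate 3 and 86.8% in control 30 replicate 3. The other 20 had 58.1 to 88.1% there, with familiar 120 replicate 4 again the lowest. The rule chose members by cover in the divergent libraries, so it favours this contrast.

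**Figure D3:**
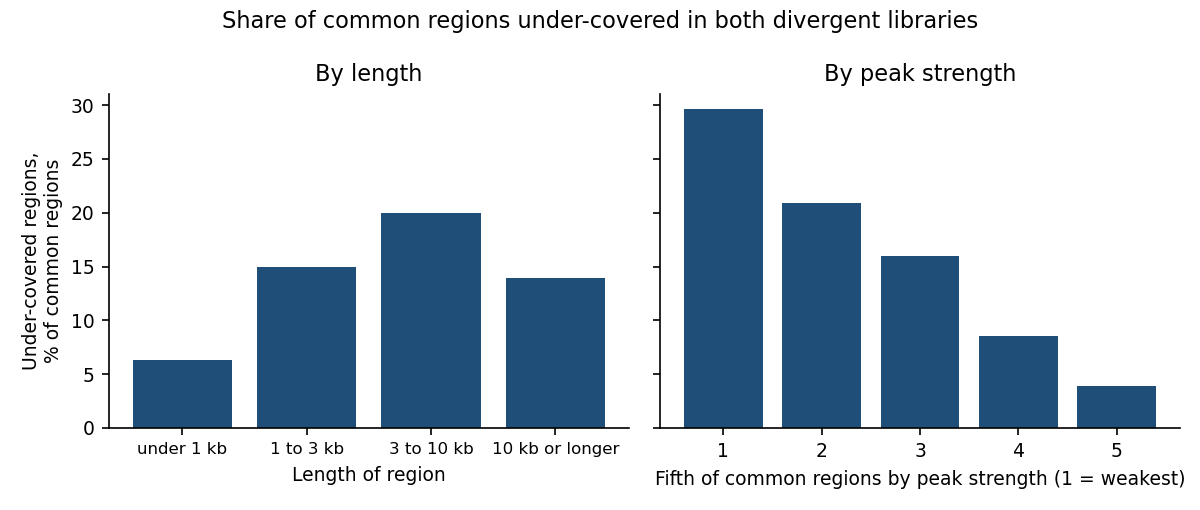
Percent of common regions that were under-covered in both divergent libraries (vertical axis), by length of the region (left) and by 5 equal parts ranked on peak strength (right), where strength is the median within-library rank of the -log10 q over the other 20 libraries. The share peaks at 19.95% for 3 to 10 kb and falls with strength, from 29.6% of the weakest part to 3.91% of the strongest.

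The 5 longest members were broad domains with a median cover of 67.7% to 88.5% in the other 20 libraries. The longest, 52.9 kb on chromosome 9, bases 8357912 to 8410777, had a cover of 24.0% in familiar 120 replicate 3 and 49.9% in control 30 replicate 3. The other 20 libraries covered 74.0% to 95.3% of it with a median of 86.0%, where the rule sets all 20 apart from the divergent libraries. It was broken into 9 peaks in familiar 120 replicate 3 and 8 in control 30 replicate 3, against 3 to 9 in the others. Next came 52.2 kb on chromosome 6, bases 7897942 to 7950105, with 31.7% and 44.2% in the divergent libraries and 71.02% to 93.4% (median 82.0%) in the other 20. A 47.1 kb member on chromosome 2, bases 13561198 to 13608270 had 26.4% in familiar 120 replicate 3 and 29.96% in control 30 replicate 3, and 64.2% to 97.6% (median 88.5%) in the other 20. The lowest of those 20 was familiar 30 replicate 4. On chromosome 10, 41.5 kb from 10824779 to 10866258 had 27.8% and 46.4% in the divergent libraries, and 67.7% to 97.6% (median 84.1%) in the other 20. The remaining member of the 5 longest, 41.6 kb on chromosome 4, bases 22528611 to 22570164, was the emptiest, with 7.85% and 22.1% in the divergent libraries. The other 20 libraries covered 44.96% to 94.0% of it (median 67.7%), with familiar 120 replicate 6 the lowest and short of counting as present.

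The 5 members with the strongest peaks lay closer to the 50% line and varied more among the other 20 libraries. The strongest, on chromosome 3, bases 6247225 to 6250381, had 34.9% in familiar 120 replicate 3 and 41.2% in control 30 replicate 3, and 42.2% to 97.2% (median 71.5%) in the other 20, so the lowest of these, control 30 replicate 4, nearly met the divergent pair. On chromosome 1, bases 4759554 to 4766413 the divergent libraries had 49.6% and 47.99%, and the other 20 had 35.3% to 100% (median 64.1%), so the values overlapped. On chromosome 8, bases 21637620 to 21643752 the divergent libraries had 44.7% and 46.01%, and the other 20 had 36.9% to 84.4% (median 67.4%), with overlap again through familiar 120 replicate 4. On chromosome 17, bases 23523172 to 23526353 the divergent libraries had 44.6% and 41.5%, and the other 20 had 49.6% to 92.3% (median 62.0%), with familiar 120 replicate 6 the lowest. The last of these 5, 12.4 kb on chromosome 9, bases 30272003 to 30284413, had 32.6% and 40.8% in the divergent libraries and 52.8% to 98.2% (median 68.6%) in the other 20.

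At the other extreme, 17 members were present in all of the other 20 libraries and had no peak base in either divergent library. They were short, from 923 to 4499 bp with a median of 1579 bp, and none reached the 5 kb set by the rule for naming, so the 3 longest are named after their values were seen. On chromosome 3, bases 25487792 to 25492290 the other 20 libraries covered 54.3% to 91.5% (median 65.8%), with a median -log10 q of 2.67. On chromosome 2, bases 30657607 to 30659771 they covered 59.03% to 96.8% (median 75.3%), with a median -log10 q of 3.36. On chromosome 8, bases 14730545 to 14732638 they covered 50.9% to 99.2% (median 77.1%), with a median -log10 q of 2.95. All 3 ranked below the median member, at 46.1, 59.7 and 52.6.

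Members occurred on all 24 chromosomes, with 1 more on an unplaced scaffold. They made up 11.8% of common regions on chromosome 21 (71 of 602) and 20.8% on chromosome 2 (125 of 601), the extremes, around the 15.8% over all. Chromosomes 8 and 20 followed at 19.4% and 18.8%.

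Members lay nearer to each other, and farther from retained regions, than retained regions did, though a retained region was still the closer neighbour of the typical member. Of members followed on their chromosome by another common region, 25.8% (557 of 2156) were followed by another member, against 11.9% of retained regions (865 of 7275) and 15.8% of all common regions. The next common region was a retained one for 38.3% of members. The median distance to the nearest retained region was 33646 bp from a member, against 15476 bp from another retained region. To the nearest other member it was 48386 bp from a member, against 126252 bp from a retained region. A further 2639 regions were present in both divergent libraries and in at most 3 of the other 20. Members lay farther from these extra regions than retained regions did, at a median of 233047 against 148007.5 bp, and 1.72% of members against 9.06% of retained regions had such a region within 10 kb. Members, retained regions and extra regions were all chosen by cover in the same divergent libraries, so this contrast is description and no separate support. Neighbouring regions can belong to the same broad domain, so members are not independent of each other.

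Counting members with no retained region between them as a run, the 2157 formed 1325 runs, of which 854 held a single member, 271 held 2, 108 held 3 and 92 held 4 or more. The longest run held 8 members over 158.3 kb of chromosome 22, from 7220750 to 7379029. Its regions were 2250 to 11221 bp long, with a cover of 0% to 49.4% in familiar 120 replicate 3 and 10.7% to 49.9% in control 30 replicate 3. Their mean cover in the other 20 libraries was 64.9% to 74.1%. The emptiest in both was region 5, from 7296897 to 7300721, with 0% in familiar 120 replicate 3 and 10.7% in control 30 replicate 3, and 20.8% to 97.6% (median 76.6%) in the other 20. Familiar 120 replicate 4 gave that 20.8% and was also short of 50% at regions 2 and 3 of the run. The last of the 8, from 7367809 to 7379029, was present in all of the 20 at 50.8% to 99.8%.

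**Figure D4:**
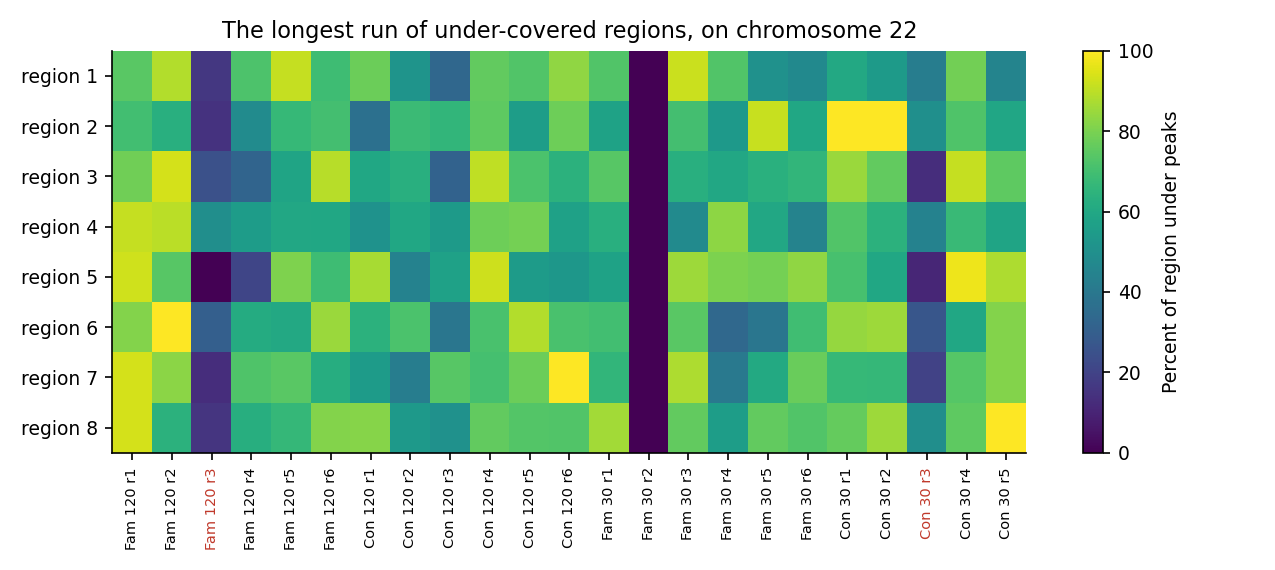
Percent of region under peaks (colour) for the 8 regions of the longest run on chromosome 22 (rows, in order along the chromosome) in each of the 23 libraries (columns; the names of the 2 divergent libraries in red). Familiar 120 replicate 3 is dark at most regions, control 30 replicate 3 at regions 3, 5, 6 and 7, and familiar 30 replicate 2 has no peak base in any of them.

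Within the other 20 libraries the members were less evenly held than retained regions. By number of libraries, 573 members (26.6%) were present in 17, 482 (22.3%) in 18, 484 (22.4%) in 19 and 618 (28.7%) in all 20, whereas 66.0% of retained regions were present in all 20. The share of members present ran from 79.7% in familiar 120 replicate 4 to 98.5% in familiar 120 replicate 1, with a median of 94.4%. Because the rule asks for 17 of these same 20, the members were also chosen anew without each library and then counted in it. The number required was lowered to match. Presence so measured was lower for members than for retained regions in 20 of 20 libraries, by 2.15 to 16.7 percentage points. The largest gaps were in control 120 replicate 3 (77.3% of members, 94.1% of retained regions), control 120 replicate 2 (80.5% and 96.9%), familiar 30 replicate 3 (81.9% and 98.3%) and familiar 120 replicate 6 (81.9% and 97.7%). Familiar 120 replicate 4 followed with 70.6% and 83.2%, and familiar 30 replicate 4 with 86.4% and 97.6%. In the other 14 libraries the gap was at most 9.29 points. The 6 libraries with the largest gaps came from 3 of the 4 groups and covered between 69.9 and 94.4 Mb, so they included both the smallest extent among the 20 and some of the largest. Members also carry weaker peaks, whose part in these gaps was not tested.

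**Figure D5:**
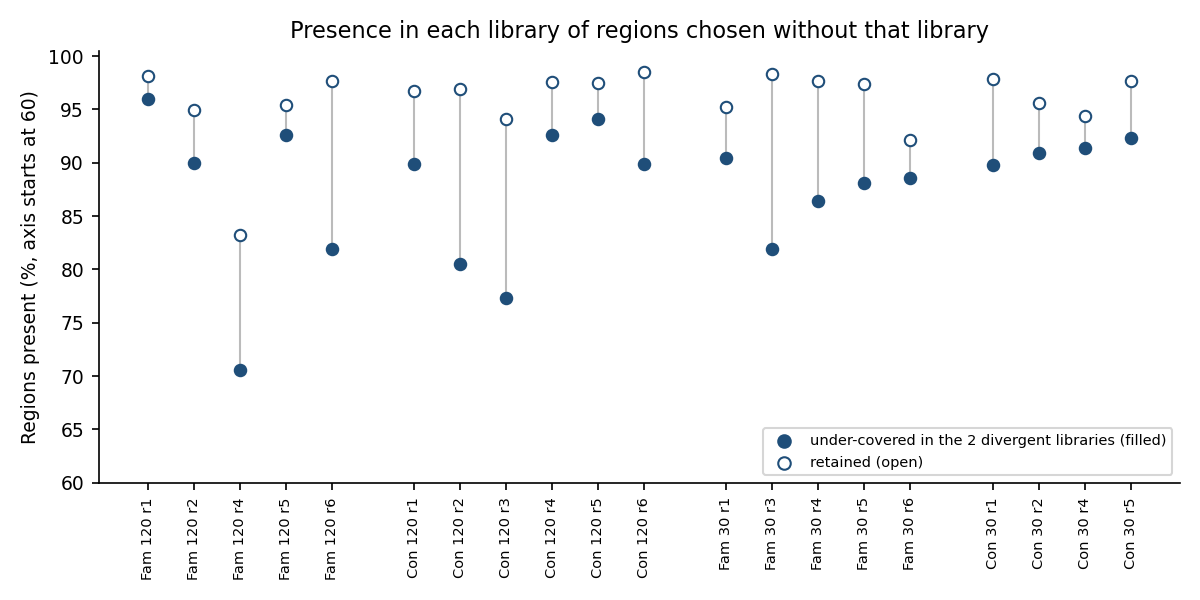
Percent of regions present (vertical axis, starting at 60%) in each of 20 libraries, for under-covered regions (filled) and retained regions (open) that were chosen without the library in question. The filled point is the lower in 20 of 20 libraries, by 2.15 points in familiar 120 replicate 1 and by 16.7 points in control 120 replicate 3.

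Familiar 30 replicate 2 was the only library the rule did not use. Its peaks touched 356 of the 2157 members (16.5%, exact binomial 95% interval 14.96 to 18.1%), against 2924 of the 7294 retained regions (40.1%, 39.0 to 41.2%). The intervals cover counting error only and treat regions as independent. It touched fewer members than retained regions in each length class, from 0% against 7.50% shorter than 1 kb to 45.1% against 77.1% at 10 kb or more. It touched 12.5% of the 295 common regions lacking in control 30 replicate 3 alone and 25.2% of the 3930 lacking in familiar 120 replicate 3 alone. No member counted as present in it, and 97 retained regions (1.33%) did. Its highest cover at a member was 47.9%, on chromosome 7, bases 21643400 to 21645404, where familiar 120 replicate 3 had 31.8%, control 30 replicate 3 had 42.9% and the other 20 had 54.1% to 100%. The next were 41.1% on chromosome 14, bases 20384439 to 20386106 and 37.6% on chromosome 20, bases 4131836 to 4133622. Members also carried weaker peaks than retained regions in the other libraries, and the part of peak strength in this difference was not tested.

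Because the divergent libraries belong to familiar 120 and control 30, group differences at the members were measured in the other 20 libraries only. At label 120, 91.3 ± 7.45% of members were present in the 5 familiar libraries and 92.5 ± 4.80% in the 6 control libraries (mean ± SD). At label 30 the shares were 92.4 ± 2.62% in the 5 familiar libraries and 94.9 ± 0.888% in the 4 control libraries. Mean cover was 73.2 ± 7.21% in familiar 120, 71.998 ± 4.60% in control 120, 72.9 ± 3.78% in familiar 30 and 75.8 ± 2.52% in control 30. The ranges of all 4 groups overlapped in both measures. Control 30 was the narrowest in presence, at 94.0 to 96.2% of members, and the means of the other 3 groups lay below that range. The medians of control 120 (94.6%) and familiar 120 (94.2%) lay inside it, however, and only that of familiar 30 (93.0%) lay below. Both divergent libraries carry fish numbers between 43 and 59. The 8 others in that range had a mean cover of 70.7 ± 4.94% at the members, against 75.4 ± 4.91% for numbers 17 to 29 (n = 5) and 74.7 ± 3.42% for 69 to 80 (n = 7). By the median they were also lowest at the members, with 71.7% against 75.7% and 74.4%. At retained regions they were lowest by the mean, with 78.1 ± 4.88% against 79.7 ± 0.896% and 79.6 ± 2.81%. There the median did not put them lowest, at 79.8% against 79.7% and 81.2%. Their peaks covered 86.8 Mb on average, against 89.2 and 90.3 Mb, with medians of 90.7, 89.5 and 91.3 Mb. They include familiar 120 replicate 4, with the least cover. What the fish numbers mark in time or handling is not stated. Adding these 3 number ranges to the limma model changed the members' median differences given below to 0.73 for familiar against control at 120 and to -0.70 for 120 against 30 in familiar fish, and kept the sign of the other 3.

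Percent cover was tested with limma over 52843 regions with a mean cover of 5 to 95%, all 2157 members among them, with p-values adjusted over all regions by the Benjamini-Hochberg method. The comparisons share groups, so they are not independent, and the rule keeps differences at members small, since 17 of the 20 libraries had to hold each. No member passed an adjusted p of 0.05 in any comparison.

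For familiar against control at 30, the question is whether contact with a client left a mark at label 30. Here 0 members passed, with a lowest adjusted p of 0.923 among members, and 1 of all 52843 regions did (0.00189%). At an unadjusted p under 0.05 there were 69 members (3.20%), 14 higher (0.649%) and 55 lower (2.55%) in familiar fish, against 4.92% of all regions, where 2.63% were higher and 2.29% lower. The median difference was -3.09 percentage points at members, -0.28 at the 7192 retained regions tested and 0.06 over all regions. In familiar fish 1382 members were lower (64.1%) and 775 higher (35.9%), against 48.2% lower and 50.2% higher over all regions. Members are measured in the same libraries and can be neighbours, so these counts are not independent. By p, the leading member was on chromosome 2, bases 20959973 to 20962873. Its cover was 61.1%, 61.6%, 68.8%, 51.4% and 67.0% in familiar 30 libraries, against 100%, 93.0%, 93.4% and 100% in control 30 libraries. These groups did not overlap, and the difference was -34.6 ± 9.29 points (SE), with an adjusted p of 0.923 by limma. With only peaks whose -log10 q was 5 or more the difference turned to 11.96 points. On chromosome 20, bases 2385340 to 2389543, familiar 30 libraries had 38.3 to 80.5% and control 30 libraries 89.4 to 94.8%. A member on chromosome 9, bases 25349537 to 25351143 had 50.6 to 79.03% in familiar 30 and 88.6 to 100% in control 30, and a member on chromosome 15, bases 9297842 to 9298823 had 43.2 to 70.4% in familiar 30 and 71.5 to 100% in control 30. The reverse was seen on chromosome 5, bases 31621227 to 31622691, with 85.1 to 89.8% in familiar 30 and 31.4 to 78.6% in control 30, and turned to -22.3 points with those stronger peaks alone. None of the 4 passed, with adjusted p-values of 0.923 to 0.968 by limma.

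For familiar against control at 120, 0 members and 1 of all regions (0.00189%) passed, and the lowest adjusted p among members was 1.0 by limma. At an unadjusted p under 0.05 there were 58 members (2.69%), 28 higher and 30 lower in familiar fish, against 4.06% of all regions, where 1.5% were higher and 2.56% lower. The median difference was 1.795 points at members, -1.48 points at retained regions and -1.17 points over all regions. The member with the smallest p, on chromosome 17, bases 13411365 to 13414019, had 100%, 82.3%, 83.8%, 67.5% and 90.7% in familiar 120 libraries, against 32.2% to 71.5% with a median of 58.6% in control 120 libraries. The groups overlapped only between 67.5% and 71.5%, and the difference was 30.4 ± 9.90 points (SE). Familiar fish had more cover also on chromosome 15, bases 19747432 to 19754687 (56.3 to 100% in familiar 120, 39.7 to 68.5% in control 120) and on chromosome 9, bases 6889519 to 6891621 (80.5 to 93.4% and 43.9 to 85.3%). They had less on chromosome 6, bases 24384460 to 24388892 (30.9 to 87.3% in familiar 120, 75.8 to 97.7% in control 120) and from 27227351 to 27228549 (26.02 to 59.8% and 57.5 to 92.7%). These ranges overlapped at all 4.

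For 120 against 30 in control fish, 0 members passed, with a lowest adjusted p of 0.749 by limma, and 0 of all regions (0.0%) did. At an unadjusted p under 0.05 there were 70 members (3.25%), 12 higher and 58 lower at 120, against 4.41% of all regions, where 2.02% were higher and 2.38% lower. The median difference was -4.05 points at members, -0.79 at retained regions and 0 over all regions. At 120, 1458 members were lower and 699 higher. The region on chromosome 2 from 20959973 again had the smallest p, with 40.6% to 82.9% and a median of 62.5% in control 120, against 93.0% to 100% in the same control 30 libraries as above. It differed by -35.1 ± 8.94 points (SE), which turned to 1.85 points with peaks whose -log10 q was 5 or more. On chromosome 16, bases 21572844 to 21573739, control 120 libraries had 88.5% to 100%, against 41.6%, 74.6%, 0% and 80.6% in control 30 libraries. Control 120 libraries were also higher on chromosome 16, bases 23406408 to 23411164 (55.3 to 98.5% in control 120, 31.9 to 62.0% in control 30) and on chromosome 17, bases 1882860 to 1883856 (63.3 to 100% and 0 to 72.7%). They were lower on chromosome 2, bases 15364332 to 15370368, with 53.0 to 67.0% in control 120 and 79.01 to 99.1% in control 30, where the groups did not overlap.

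For 120 against 30 in familiar fish, 0 members and 1 of all regions (0.00189%) passed, and the lowest adjusted p among members was 0.909 by limma. At an unadjusted p under 0.05 there were 43 members (1.99%), 28 higher and 15 lower at 120, against 4.69% of all regions, where 1.55% were higher and 3.14% lower. The median difference was 0.40 points at members, -2.02 points at retained regions and -2.20 points over all regions. With the covered length of each library in the model, it was 2.48 points at members and 0.11 over all regions. On chromosome 1, bases 5344682 to 5346666, familiar 120 libraries had 60.3%, 62.4%, 55.01%, 91.0% and 32.7%, against 90.2%, 91.7%, 95.4%, 90.1% and 97.6% in familiar 30 libraries. A familiar 120 library at 91.0% reached the familiar 30 values, and the difference was -32.7 ± 9.45 points (SE). On chromosome 3, bases 7669119 to 7671342, familiar 120 libraries had 74.8 to 87.7% and familiar 30 libraries 35.2 to 61.6%, with no overlap. Lower values at 120 were found on chromosome 4, bases 26537752 to 26540562 (25.5 to 92.2% in familiar 120, 79.9 to 96.8% in familiar 30) and on chromosome 8, bases 22674374 to 22676497 (34.2 to 71.05% and 74.3 to 98.9%). Higher values at 120 were found on chromosome 3, bases 37065524 to 37069134, with 88.9 to 96.3% in familiar 120 and 56.5 to 89.0% in familiar 30.

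The familiar minus control difference at 120, less that at 30, was tested as an interaction. In this test 0 members and 0 of all regions (0.0%) passed, with a lowest adjusted p of 0.887 by limma among members. At an unadjusted p under 0.05 there were 73 members (3.38%), 56 higher and 17 lower, against 5.35% of all regions, where 2.1% were higher and 3.25% lower. In all 5 tests the share of members at that level was below the share over all regions. The rule keeps differences at members small, so this is not read as a result. The median SE of the interaction was 14.7 points at members and 23.6 over all regions. The median interaction was 4.83 points at members, -1.27 points at retained regions and -2.19 points over all regions.

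The 50% line decides much of the membership, as 927 members had at least 40% in the better covered of the divergent libraries and 1494 common regions outside the rule had 50 to 60% there. Just inside it lay chromosome 11, bases 7190874 to 7198238 and chromosome 1, bases 27440910 to 27444120, at 49.99% and 49.98% in control 30 replicate 3. Just outside lay chromosome 9, bases 2828870 to 2830189, at exactly 50% in control 30 replicate 3, and chromosome 13, bases 19644472 to 19645897, at exactly 50% in familiar 120 replicate 3. On the other threshold, 573 members were present in exactly 17 of the 20, and 621 regions lacking in both divergent libraries were present in exactly 16.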

How the data were processed

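H3K27ac CUT&RUN libraries of forebrain were prepared with input DNA made by nuclease digestion, per the labels' protocols. Tools listed in the submitters' processing notes are MACS2, Bowtie2, Picard, SAMtools, FastQC and Trimmomatic 0.39. No source used here gives the build, the peak settings or whether input was a control. The authors deposited broad peaks called per library, each with a score, a fold enrichment (a ratio) and -log10 p and q values. Fold and q come from the authors and served here to rank or select peaks inside a library's list.

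Groups came from titles. The members and lists were chosen with earlier results of these data known. Mitochondrial peaks were left out. Percent cover was compared by limma 3.58.1 (R 4.3.3) on 20 libraries with 4 groups in a single model, after a test on simulated data. Cover is bounded, which limma's model does not describe, so Fisher's exact test of presence was an alternative. Named regions are the 5 longest, the 5 of highest rank, the 5 of smallest p per comparison, the longest run, and those at the thresholds or highest in familiar 30 replicate 2. Python 3.11.15, numpy 2.4.6, pandas 2.3.3 and scipy 1.17.1 were used. Depth is unknown, so no interval for counting error in peaks is given. Other consensus rules, presence thresholds, a stricter q, and leaving out each library were tried as alternatives. So were limma models with the covered length of each library or the ranges of fish numbers added.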

Additional observations from a re-analysis of the deposited data

Results flagged for a closer look

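Of 60 sets of 4 to 6 library values, 7 held a value far from the rest of its group, and chance marks about 1 set in 20. Familiar 30 replicate 2, already known to have few peaks, accounted for 4 of them among the familiar 30 libraries. It held 0% of the under-covered regions as present, covered 1.55% of their bases on average, touched 16.5% of them, and had a median rank of the best peak of 0, since most of them had no peak. The other 3 were single regions. On chromosome 6 from 27227351, familiar 120 replicate 5 had a cover of 26.02%, below the other familiar 120 libraries. On chromosome 16 from 23406408, control 30 replicate 5 had 62.0%, above the other control 30 libraries. On chromosome 3 from 37065524, familiar 30 replicate 6 had 89.0%, above the other familiar 30 libraries.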

How the results depend on the processing

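Which regions were under-covered depended on the 50% line. A line at 25% gave 2316 regions (432 of the 2157 among them) and a line at 75% gave 774 (113 shared). Using only peaks whose -log10 q was 5 or more gave 730 (261 shared). Regions built from at least 11 libraries gave 3489 (1333 shared), and from at least 2 libraries 1801. Asking for 15 of the 20 libraries gave 3439, for all of them 618, and for no base in either divergent library 159. Joining gaps of 0 or 1000 bp gave 2177 and 1890, and leaving out a library 2212 to 2436. When a library was left out, the number of libraries required was lowered to match. All of the 2157 then stayed in by construction, so that count could only rise. The percent present in familiar 30 replicate 4 (91.8) became 93.7 with the stricter q, 85.1 with 15 libraries, 100 with all 20 and 80.5 with no base, and 86.4 to 91.8 without a library. The percent touched by familiar 30 replicate 2 (16.5) became 2.63 with a line at 25%, 51.4 at 75%, 0.137 with the stricter q, 21.5 with 2 and 4.61 with 11 libraries for the consensus, 19.6 with gaps of 1000 bp, 12.6 with 15 libraries, 29.1 with all 20 and 0.629 with no base, and 15.5 to 16.3 without a library.

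No member passed in any of 134 limma fits, where the lowest adjusted p of a member was 0.397. None passed by Fisher's exact test of presence either. There, 1, 0, 1 and 0 of the 2157 members had an unadjusted p under 0.05, against 746, 198, 479 and 319 of all 52979 regions. That test could not decide the question. The smallest p it could give any region was 0.00216 to 0.00794, before adjustment over 52979 regions. The rule lets so few libraries lack a member that both of these unadjusted counts of 0 were fixed by it. A count of 0 by Fisher's test is therefore not read as a result. The count over all regions went from 1 to 0 with the stricter q, with 22 libraries, with only the groups compared and with Fisher's test for familiar against control at 30 and at 120 and for 120 against 30 in familiar fish, and from 0 to 5 with only the groups compared for 120 against 30 in control fish. Without a library it was 0 to 10 at 30, 0 to 4 at 120, 0 to 11 in control fish, 0 to 10 in familiar fish and 0 to 7 for the interaction. It was highest without familiar 30 replicate 6 (10, 10 and 7), control 30 replicate 2 (11) and control 120 replicate 1 (4). With both divergent libraries in the fit, the members' median differences in the order of the report turned to 5.53, -7.51, 4.54, -8.64 and -13.2 points, as the rule fixes those libraries. Without a library, the median for 120 against 30 in familiar fish ran from -1.54 to 3.12 and changed sign, below 0 without familiar 120 replicates 1, 2 and 5 or familiar 30 replicates 3 and 4. The other 4 medians kept their signs, but that for familiar against control at 120 ran from 0.11 without familiar 120 replicate 1 to 4.38 without familiar 120 replicate 4 (0.34 to 2.86 without familiar 120 replicates 5 and 6 or control 120 replicates 2, 3 and 5), and the interaction was 2.84 and 7.60 without the same libraries. At 30 it was -1.85 without familiar 30 replicate 3 and -1.99 without control 30 replicate 4. With the 3 ranges of fish numbers in the model, the members' medians were -3.88, 0.73, -4.96, -0.70 and 4.45. With the covered length of each library in the model, the members' medians were -3.34, 2.34, -2.96, 2.48 and 5.79. The medians over all regions were then -0.09, -0.42, 1.20, 0.11 and -0.99. With the stricter q, the region on chromosome 2 from 20959973 reversed to 11.96 points for familiar against control and 1.85 for 120 against 30, and that on chromosome 5 from 31621227 to -22.3; the cause was not tested. No paired analysis was possible because the labels give groups no shared replicate numbers. Depth is unknown and limits every cover value.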
